A study of Mus musculus with 8 samples.

Results

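The genes described here are 10 genes of the unfolded protein response and the integrated stress response: *Hspa5*, *Ddit3*, *Atf3*, *Atf4*, *Atf6*, *Xbp1*, *Ern1*, *Trib3*, *Asns* and *Chac1*. They were picked by gene symbol from a list and not by a cut on their values, although earlier results of these data were known. They are 10 of the 21859 gene identifiers counted in mouse aorta. A second identifier with the symbol *Ddit3* (ENSMUSG00000116429.1) had 0 counts in all 8 aortas and was left aside. RNA came from the whole aorta of male mice that were 40 weeks old and fed a chow diet, 4 of them *ApoE-/-* and 4 wild-type (WT) C57BL/6, with 1 library per mouse. *ApoE-/-* mice lack apolipoprotein E, which clears lipoprotein remnants from blood, and are prone to atherosclerosis. The knockout is present in every cell, on the C57BL/6 background, and whether the WT mice were littermates is not given in the sources used here. The question was whether RNA of the stress response genes differed between the aortas of *ApoE-/-* and WT mice.

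Cells read the load of unfolded protein in the endoplasmic reticulum (ER) through sensors in its membrane. IRE1α (*Ern1*) cuts the mRNA of *Xbp1* so that an active transcription factor is made, ATF6 (*Atf6*) is cleaved and moves to the nucleus, and PERK (*Eif2ak3*) phosphorylates eIF2α, which slows translation while favouring that of *Atf4*. The last step is shared with kinases that sense amino acid lack, heme lack and viral RNA, and is then called the integrated stress response, whose transcription factors ATF4, CHOP (*Ddit3*) and ATF3 drive genes such as *Trib3*, *Asns* and *Chac1*. In arteries these pathways are known from macrophages, endothelium and smooth muscle cells of plaques. The counts are sums over a gene, so they hold neither the splicing of *Xbp1*, nor the cleavage of ATF6, nor the translation of *Atf4*.

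The DNA elements through which these factors act mark which arm a gene is known to answer. The ER stress response element (ERSE, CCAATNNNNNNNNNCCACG) binds ATF6 with NF-Y, and the C/EBP-ATF response element (CARE, TGATGNAA) binds ATF4 with a partner. Both were searched on both strands of RefSeq promoter windows of 300 bases (GRCm38.p6), from 250 bases before to 50 bases after the start site. An ERSE was found in 0.119% and a CARE in 3.97% of all 32851 windows. Of the 10 genes, 9 had a window, and *Atf6* had none. An ERSE was found in that of *Hspa5*, and a CARE in those of *Atf3*, *Trib3*, *Asns* and *Chac1*. A match is a string of letters and does not show that a factor was bound, and near matches were not searched. The 250 bases before the start site are shown for a target of each arm, *Hspa5* for ATF6 and *Chac1* for ATF4, with the matched element in capitals. Those of *Hspa5* lie at chr2:34771840-34772089 and those of *Chac1* at chr2:119350992-119351241, both on the plus strand. Start sites here are those of RefSeq, while the gene coordinates given below are from the GENCODE M21 annotation. The annotations can differ, and the GENCODE model of *Hspa5* begins at 34771970, so that it includes the ERSE shown.
Hspa5: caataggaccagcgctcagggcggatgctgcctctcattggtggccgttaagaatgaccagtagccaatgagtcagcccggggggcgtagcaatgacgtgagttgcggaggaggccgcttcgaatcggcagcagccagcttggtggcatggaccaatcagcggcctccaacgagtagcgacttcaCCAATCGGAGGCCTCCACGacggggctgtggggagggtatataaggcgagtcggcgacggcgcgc
Chac1: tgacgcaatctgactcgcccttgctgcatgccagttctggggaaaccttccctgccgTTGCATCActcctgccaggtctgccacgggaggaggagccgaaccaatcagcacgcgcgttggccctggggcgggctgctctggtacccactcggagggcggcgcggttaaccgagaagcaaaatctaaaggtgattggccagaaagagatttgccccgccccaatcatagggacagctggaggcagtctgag

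The CARE of the other target genes and of *Slc7a11*, the cystine transporter that is described below, are given so that they can be compared with that of *Chac1*. Each is written 5′ to 3′ in the direction of its gene, with 6 bases on either side, and the capitals mark the element, which reads as its reverse complement where it lies on the opposite strand (*Atf3*, *Trib3*, *Chac1* and the second of *Slc7a11*). The *Atf3* site ended 103 bases before the RefSeq start site, that of *Asns* 16 bases before it, and that of *Trib3* began 14 bases after it. In GENCODE M21 the *Trib3* model begins at 152344032 on the minus strand, so the site lies before it. The sites of *Atf3* and *Asns* lie inside their GENCODE models. *Slc7a11* held a CARE on each strand, 59 and 40 bases before the start site. All 5 sites lie in genes of the minus strand, at chr1:191183430-191183449, chr6:7693219-7693238, chr2:152344033-152344052, chr3:50443666-50443685 and chr3:50443647-50443666, in the order shown.
Atf3: tcgcacTTGCATCAccaagt
Asns: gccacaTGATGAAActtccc
Trib3: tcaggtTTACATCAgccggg
Slc7a11, first: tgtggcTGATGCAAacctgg
Slc7a11, second: gagaatTTGCATCAtcatgc

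Between 23240995 and 23940156 read pairs were assigned to genes in *ApoE-/-* libraries, against 18375898 to 21664598 in WT libraries. *Apoe* itself had 14.7 to 36.3 CPM (counts scaled to library size, with edgeR's TMM factors) in *ApoE-/-* and 536 to 857 CPM in WT aortas, which matches every label. Replicate 1 of the *ApoE-/-* mice stood apart, with a summed level of 12 contractile smooth muscle markers of 5945 CPM, against 13141 to 24309.8 CPM in the other 7 aortas. The 15 macrophage markers summed to 790 to 4344 CPM in *ApoE-/-* and to 454 to 508 CPM in WT mice. All 14 endothelial markers and 12 smooth muscle markers passed the filter on low counts in these aortas. The tissue is a mixture, and fewer cells of a type cannot be told apart from less RNA per cell.

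All 10 genes passed the filter, which kept 15077 genes. None of them had an adjusted p under 0.05 in edgeR's quasi-likelihood test, where 0.464% of all tested genes did (70 genes, 56 higher and 14 lower in *ApoE-/-*). DESeq2 also called 0 of 10, against 4.29% of all genes. At an unadjusted edgeR p under 0.05 there was 1 gene, *Chac1*, where 11.4% of all genes reached that level. In none of the 10 were all values of one genotype above all values of the other, a separation seen in 8.71% of all genes. The log2 fold change was above 0 in 9 of 10, against 58.0% of all genes, although *Atf4* and *Asns* turned to −0.0080 and −0.013 with upper-quartile factors. Without *ApoE-/-* replicate 4 it was above 0 in 5 of 10 only, against 56% of all genes. Its median was 0.11 over the 10 genes and 0.05 over all genes tested. Leaving out 1 mouse at a time gave 0 members called by edgeR each time. In these fits edgeR called 0.112% of all genes or fewer, except without *ApoE-/-* replicate 1, when it called 3.91%. DESeq2 called *Chac1* once, without *ApoE-/-* replicate 2 (log2 fold change 0.73, DESeq2 adjusted p = 0.027), when it called 4.14% of all genes.

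**Figure D1:**
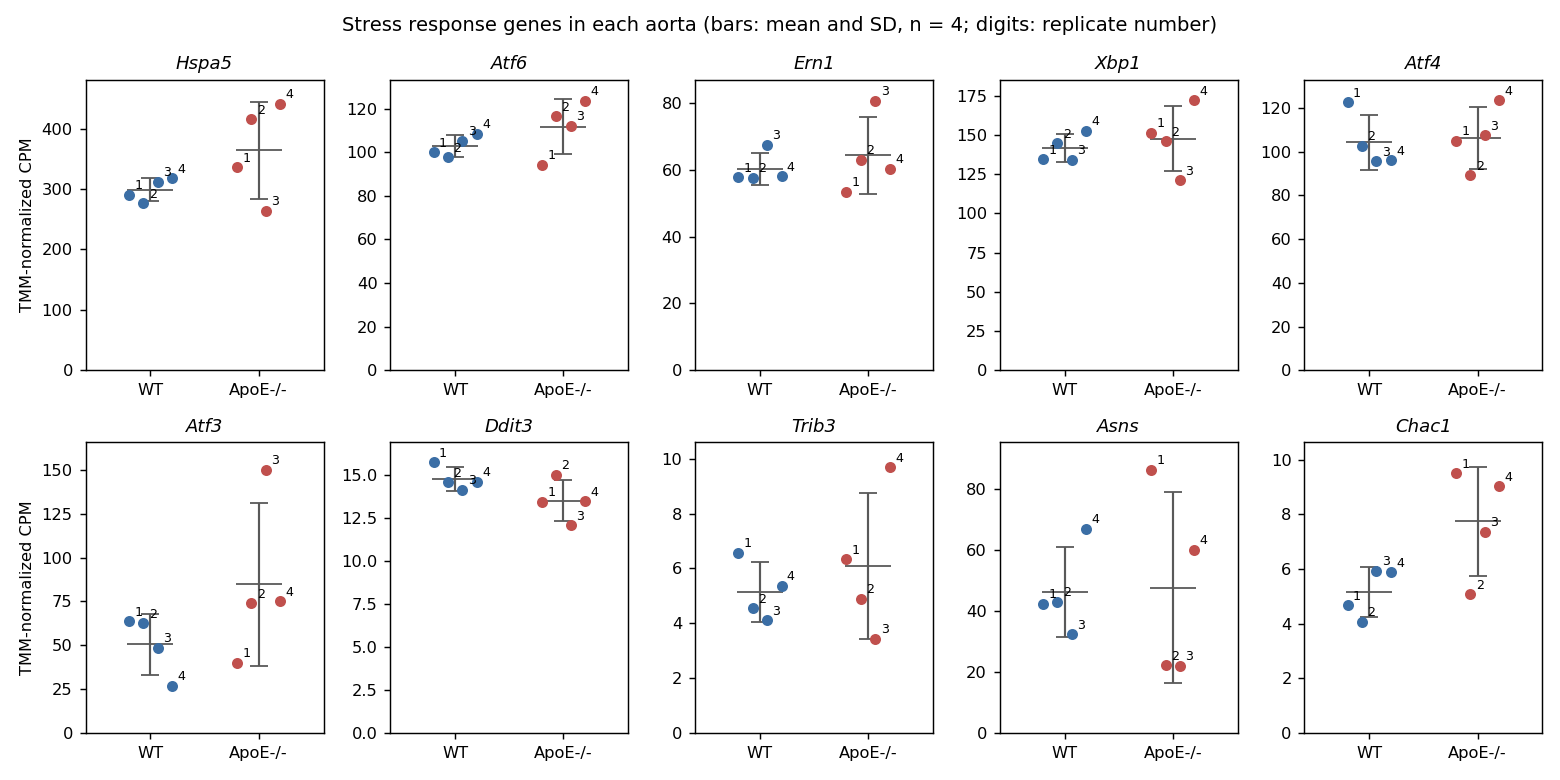
TMM-normalized CPM of the 10 genes in each aorta, with the genotype on the horizontal axis, the replicate number beside each point, and horizontal and vertical bars for the mean and SD (n = 4). The vertical axes start at 0 and differ between genes. The points of the genotypes overlap for all 10 genes, and the *ApoE-/-* points of *Asns* run from 22.0 to 86.4 CPM while the WT points run from 32.3 to 67.1 CPM.

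The level of the genes was ordered by CPM per kilobase of annotated exons in WT aortas. *Hspa5* was highest with 70.8 CPM per kb, followed by *Atf4* with 44.2 and *Xbp1* with 43.6. *Atf3* (23.4), *Asns* (16.9) and *Atf6* (11.2) lay in the middle, and *Ddit3* (8.61), *Ern1* (7.36), *Chac1* (3.14) and *Trib3* (2.42) were lowest. The WT values of neighbours overlapped between *Atf4* and *Xbp1*, between *Atf3* and *Asns*, between *Ddit3* and *Ern1*, and between *Chac1* and *Trib3*, so these pairs cannot be ordered. The sensors *Atf6* and *Ern1* thus lay below *Hspa5*, *Atf4*, *Xbp1* and *Atf3*. In *ApoE-/-* aortas, *Atf3* had 39.4 CPM per kb on average and *Hspa5* 86.2.

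Among the sensors, *Ern1* (chromosome 11, 106394650 to 106487852, GRCm38) encodes the kinase and nuclease IRE1α. Its level was 53.4, 63.0, 80.6 and 60.4 CPM in *ApoE-/-* replicates 1 to 4 and 57.7, 57.6, 67.5 and 58.0 CPM in WT replicates 1 to 4. Replicate 3 was the highest of its genotype in both, and the *ApoE-/-* values enclosed all WT values. Between genotypes the log2 fold change was 0.10 (95% interval −0.22 to 0.41, edgeR adjusted p = 0.862). *Atf6* (chromosome 1, 170704674 to 170867771), which encodes the cleaved transcription factor, had 94.3, 117, 112 and 124 CPM in *ApoE-/-* and 100, 97.8, 105 and 109 CPM in WT aortas. All *ApoE-/-* values but that of replicate 1 were above every WT value. For *Atf6* the log2 fold change was 0.12 (interval −0.13 to 0.36, edgeR adjusted p = 0.789), with 0.19 when replicate 1 and 0.07 when replicate 4 of the *ApoE-/-* mice was left out. *Gm23523* and *Gm25235* overlap *Atf6* on the same strand.

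*Xbp1* (chromosome 11, 5520659 to 5525893) encodes the transcription factor that IRE1α activates, which drives genes of ER-associated degradation and secretion. It had 151, 146, 121 and 172 CPM in *ApoE-/-* and 135, 145, 134 and 153 CPM in WT aortas. The lowest and the highest of the 8 values were both from *ApoE-/-* mice, replicates 3 and 4. Total *Xbp1* RNA had a log2 fold change of 0.06 (interval −0.23 to 0.35, edgeR adjusted p = 0.914), and a rise of more than 1.27-fold lay outside the interval. Plasma cells express *Xbp1* strongly. Their markers summed to 121 to 260 CPM in *ApoE-/-* and 192 to 293 CPM in WT mice, with overlap, and 2 of 8 (*Mzb1* and *Tnfrsf17*) did not pass the filter. Of the 6 tested, 5 had a log2 fold change above 0 (median 0.55), opposite to the sum, whose most abundant marker in WT mice, *Irf4*, was called lower by DESeq2 only (log2 fold change −1.25, DESeq2 adjusted p = 0.036, edgeR adjusted p = 0.235). Their part in the result was not tested.

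*Atf4* (chromosome 15, 80255184 to 80257541) encodes the main transcription factor of the integrated stress response. Its values were 105, 89.2, 108 and 124 CPM in *ApoE-/-* and 123, 103, 95.6 and 96.1 CPM in WT aortas. They overlapped almost fully, the highest WT value (replicate 1) lying just below the highest *ApoE-/-* value (replicate 4). The log2 fold change of *Atf4* was 0.03 (interval −0.28 to 0.33, edgeR adjusted p = 0.966).

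*Ddit3* (chromosome 10, 127290774 to 127296288), which encodes the pro-apoptotic factor CHOP, was the only one of the 10 with a log2 fold change below 0. It had 13.4, 15.0, 12.1 and 13.5 CPM in *ApoE-/-* and 15.7, 14.6, 14.1 and 14.6 CPM in WT aortas. Replicate 2 was the one *ApoE-/-* value within the WT range, and the other 3 were below all WT values. This gave −0.13 on the log2 scale (interval −0.37 to 0.11, edgeR adjusted p = 0.766, two-sided exact permutation p = 0.114), and this was the narrowest interval of the 10 genes. The value was −0.08 without *ApoE-/-* replicate 3 and −0.052 without both replicates 1 and 3. The empty second *Ddit3* gene model lies on the same strand inside it, and pairs that fit both could have been set aside as ambiguous. *Gm4189* and *Mars* overlap it on the opposite strand, which the counting kept apart.

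*Atf3* (chromosome 1, 191170296 to 191218039), an immediate-early and stress-induced transcription factor, had the largest log2 fold change of the 10. Its values were 40.0, 74.0, 150 and 75.1 CPM in *ApoE-/-* and 63.8, 62.6, 48.6 and 26.9 CPM in WT aortas. 3 of the 4 *ApoE-/-* aortas were above all WT aortas, while replicate 1 was below 3 of them. On average the log2 fold change was 0.75 (SE 0.42, interval −0.21 to 1.71, edgeR adjusted p = 0.597). It became 0.99 without *ApoE-/-* replicate 1 (edgeR adjusted p = 0.185) and 0.32 without replicate 3 (edgeR adjusted p = 0.763). The summed level of 18 immediate-early genes, which do not include *Atf3*, was 1425, 1942, 2998 and 1723 CPM in the *ApoE-/-* and 2633, 2635, 2274 and 1719 CPM in the WT replicates. The extremes of *Atf3* within each genotype fell on the same mice as those of this sum, except that the highest WT sum was in replicate 2 and the highest WT *Atf3* in replicate 1. These genes are known to respond to tissue handling, and their part in the result was not tested.

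**Figure D2:**
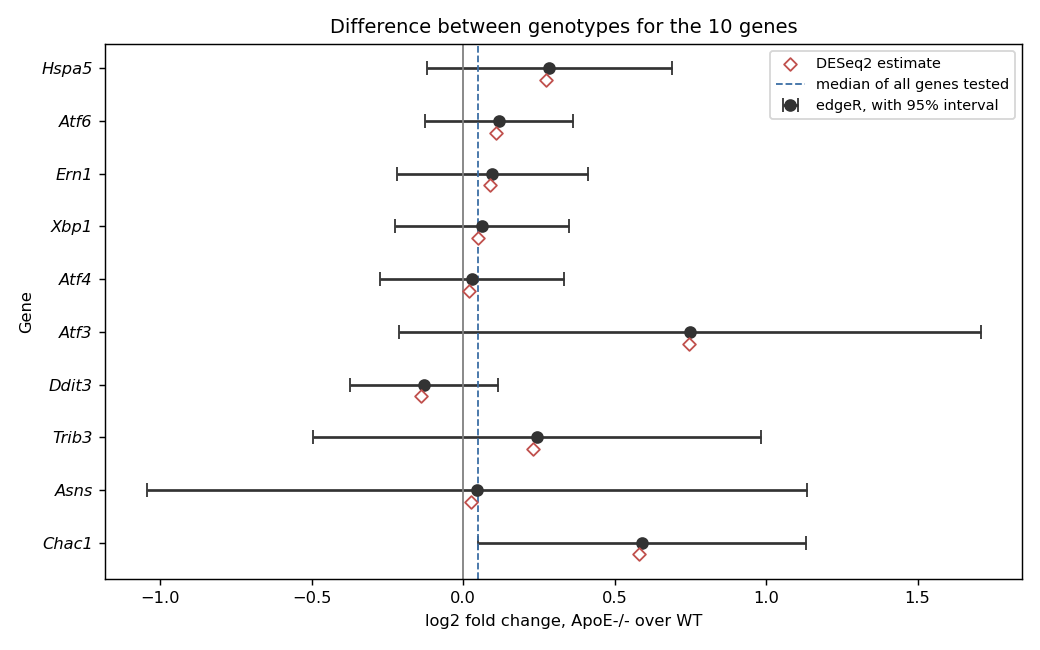
Log2 fold change of *ApoE-/-* over WT (horizontal axis) for the 10 genes (vertical axis), with edgeR estimates and 95% intervals as filled points with bars, DESeq2 estimates as open diamonds, and the median of all genes tested as a dashed line. The interval of *Chac1* alone lies above 0 (0.05 to 1.13), and that of *Asns* is the widest (−1.04 to 1.13).

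Of the target genes, *Hspa5* (chromosome 2, 34771970 to 34777547) encodes BiP, the main ER chaperone and the usual readout of the unfolded protein response. Its counts were the highest, with 336, 416, 265 and 441 CPM in *ApoE-/-* and 291, 277, 313 and 318 CPM in WT aortas. 3 of the *ApoE-/-* aortas were above all WT aortas and replicate 3 was below all of them. The mean was 365 ± 80.4 CPM in *ApoE-/-* and 299 ± 19.2 CPM in WT mice (SD, n = 4), and the log2 fold change 0.28 (interval −0.12 to 0.69, edgeR adjusted p = 0.656, two-sided exact permutation p = 0.229). Without replicate 3 the genotypes separated, with a log2 fold change of 0.41 (edgeR adjusted p = 0.376), when 11.4% of all genes separated. Without replicate 4 it was 0.18 and without replicate 2 it was 0.21. Without both replicates 1 and 3 it was 0.52 (edgeR adjusted p = 0.069), in a fit where edgeR called 5.38% of all genes. In replicate 3 the macrophage markers summed to 2852 CPM, the second highest of the 8 aortas, while in replicates 1, 2 and 4 *Hspa5* and this sum had the same order (790, 1880 and 4344 CPM). The part of macrophages in the result was not tested.

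*Asns* (chromosome 6, 7675169 to 7693254), the enzyme that makes asparagine, varied most of the 10 within *ApoE-/-* mice, while *Atf3* varied most within WT mice. It had 86.4, 22.2, 22.0 and 60.1 CPM in *ApoE-/-* and 42.4, 43.0, 32.3 and 67.1 CPM in WT aortas. 2 *ApoE-/-* aortas were below every WT aorta and 1 was above every one, so that the means were almost equal (47.7 ± 31.4 and 46.2 ± 14.8 CPM, SD, n = 4). Between genotypes *Asns* had a log2 fold change of 0.05 (SE 0.47, interval −1.04 to 1.13, edgeR adjusted p = 0.985). It turned to −0.41 without *ApoE-/-* replicate 1 and was 0.28 without replicate 2 or without replicate 3. The highest CPM of *Asns* was 3.93 times the lowest within *ApoE-/-* and 2.08 times within WT mice. The 10 adipocyte markers, which stand for fat around the vessel, summed to 8224, 4557, 3033 and 10802 CPM in *ApoE-/-* and 9863, 6838, 7176 and 14282 CPM in WT aortas, all of them detected. The 2 *ApoE-/-* aortas with little *Asns* had the 2 lowest sums of the 8, and the WT aorta with the most *Asns* had the highest. *ApoE-/-* replicate 1, which had the most *Asns* of all, had a lower sum than WT replicate 1, whose *Asns* was 42.4 CPM. The part of fat in the result was not tested.

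*Trib3* (chromosome 2, 152337422 to 152344032), a pseudokinase induced by ATF4 and CHOP, was low like *Chac1*, with 74 to 223 counts per library. Its levels were 6.33, 4.90, 3.44 and 9.68 CPM in *ApoE-/-* and 6.56, 4.54, 4.10 and 5.36 CPM in WT aortas. Both the highest and the lowest value came from *ApoE-/-* mice. For *Trib3* the log2 fold change was 0.24 (interval −0.50 to 0.98, edgeR adjusted p = 0.848). It turned to −0.072 without *ApoE-/-* replicate 4 and was 0.44 without replicate 3.

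*Chac1* (chromosome 2, 119351229 to 119354381), which degrades glutathione and is a known target of ATF4, came closest to a difference. It had 9.50, 5.07, 7.36 and 9.03 CPM in *ApoE-/-* and 4.68, 4.07, 5.93 and 5.89 CPM in WT aortas, from 87 to 234 counts. All *ApoE-/-* values but that of replicate 2 were above every WT value. The level was 1.51-fold higher on average (log2 fold change 0.59, SE 0.24, interval 0.05 to 1.13), which did not pass after adjustment (edgeR adjusted p = 0.377, DESeq2 adjusted p = 0.258, two-sided exact permutation p = 0.0857). Over the alternatives the edgeR adjusted p of *Chac1* ran from 0.191 to 0.685 and its log2 fold change from 0.46 to 0.75.

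The 10 genes did not share one pattern across the aortas. The fourth *ApoE-/-* aorta had the highest of the 8 values for *Hspa5*, *Atf4*, *Atf6*, *Xbp1* and *Trib3*. Replicate 3 had the lowest for *Hspa5*, *Ddit3*, *Xbp1*, *Trib3* and *Asns*, and the highest for *Atf3* and *Ern1*. Replicate 1 was highest for *Asns* and *Chac1* and lowest for *Atf6* and *Ern1*. WT aortas were an extreme for 3 genes only, *Ddit3* (highest), *Chac1* and *Atf3* (lowest). The SD of log2 CPM was larger in *ApoE-/-* than in WT mice for 10 of 10, as it was for 85.4% of all genes. It was 0.34 against 0.09 for *Hspa5*, 1.01 against 0.44 for *Asns*, and 0.343 against 0.176 for the median of all genes.

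**Figure D3:**
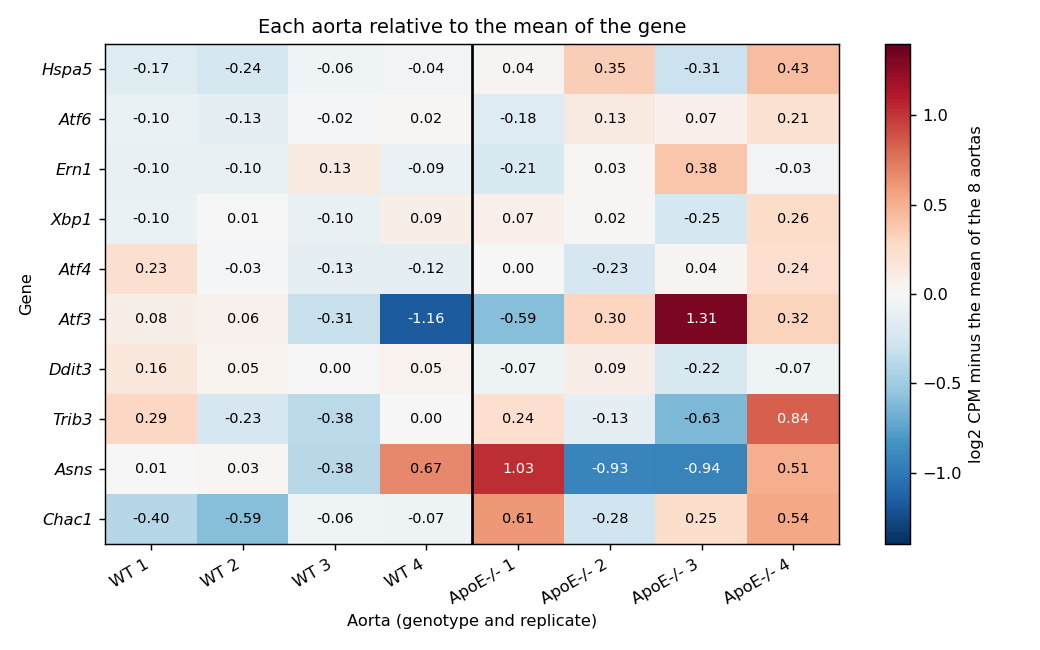
Log2 CPM of the 10 genes (rows) in the 8 aortas (columns, WT left and *ApoE-/-* right of the line), each minus the mean of the gene over the 8 aortas, in numbers and colour. *ApoE-/-* replicate 3 holds both the highest value of *Atf3* (1.31) and one of the lowest of *Asns* (−0.94).

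The separation of the genotypes depended on single mice. It was reached by *Atf3* and *Atf6* without *ApoE-/-* replicate 1, when 17.2% of all genes separated, and by *Ddit3* and *Chac1* without replicate 2, when 12.4% did. With both replicates 1 and 3 left out, *Hspa5*, *Atf3* and *Atf6* separated, and so did 28.4% of all genes. No member separated when *ApoE-/-* replicate 4 was left out, when 13.5% of all genes did, or when any WT mouse was, when 10.3% to 11.1% did.

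For 9 of the 10, the gene with the most similar pattern is given as the one with the smallest mean absolute difference of centred log2 CPM over the 8 aortas. *Bbc3*, a pro-apoptotic gene, was nearest to *Hspa5* (0.051), *Ube2g1*, a ubiquitin-conjugating enzyme, to *Atf6* (0.033) and *Aatf* to *Xbp1* (0.029). The others were *Vps72* for *Ddit3* (0.037), *Itpripl1* for *Atf4* (0.054), *Mcu* for *Ern1* (0.048), *Sh2d4a* for *Trib3* (0.072), *Dok6* for *Asns* (0.175) and *Tmem267* for *Chac1* (0.148). The nearest gene of *Asns* and *Chac1* was thus farther away than that of the other 7.

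Beyond the 10 genes, 155 of 159 genes in 8 lists of related genes could be tested. Of these, 1 was called by edgeR, *Slc7a11*, and 8 by DESeq2, shares near those of all genes (0.464% and 4.29%). An unadjusted edgeR p under 0.05 was reached by 28 of the 155, and by 11.4% of all genes. This count fell to 16 without WT replicate 1, when 8.99% of all genes reached that level, and to 17 without WT replicate 2 (9.16%) or WT replicate 4 (8.34%). It rose to 31 without *ApoE-/-* replicate 1 (18.7%) and to 40 without both *ApoE-/-* replicates 1 and 3 (19.5%). The edgeR call was lost when any of the 7 mice other than *ApoE-/-* replicate 1 was left out, and without that replicate edgeR called 5 of the 155, near the share of all genes it then called (3.91%). With both *ApoE-/-* replicates 1 and 3 left out it called 6 of the 155 and 5.38% of all genes.

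**Figure D4:**
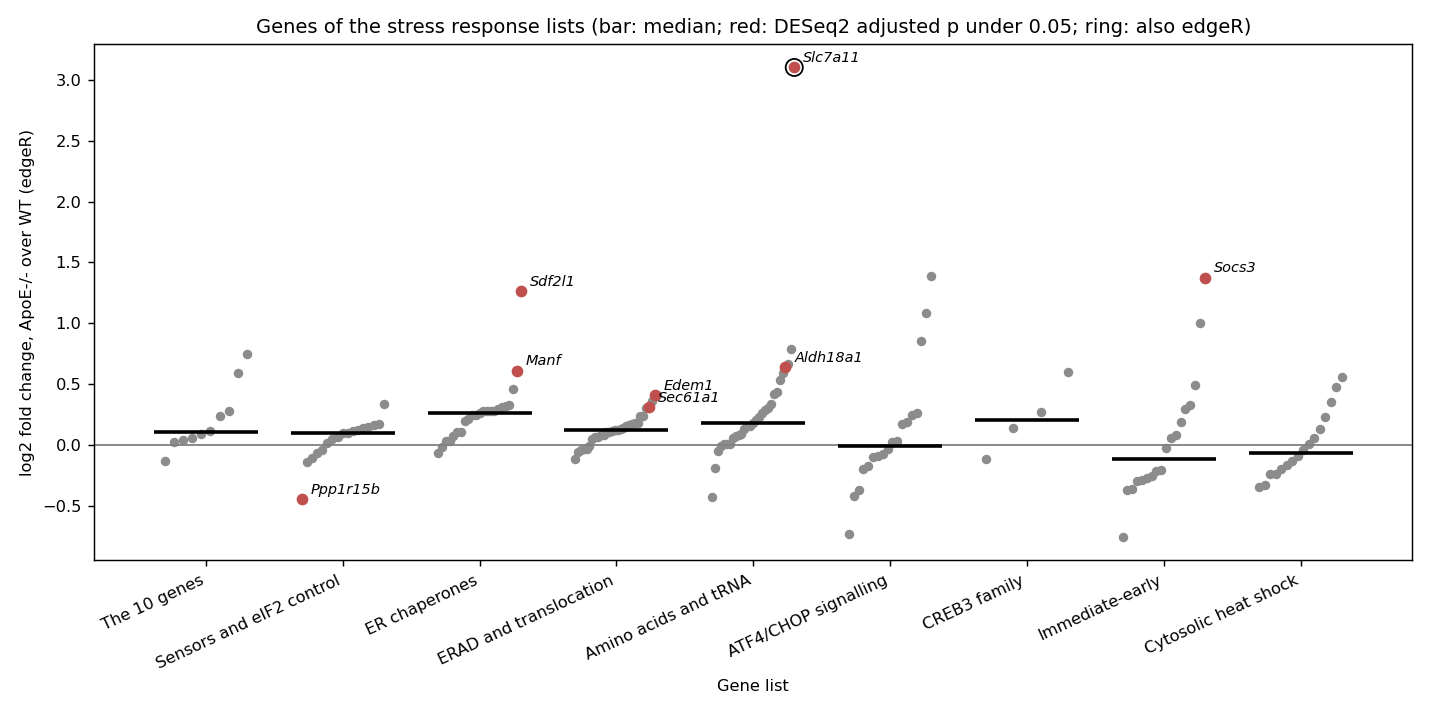
Log2 fold change of *ApoE-/-* over WT (vertical axis, edgeR) of each tested gene in the 10 genes and the 8 lists (horizontal axis), sorted within a list, with a bar at the median. Red points had a DESeq2 adjusted p under 0.05 and are named, and the ring marks *Slc7a11*, the gene also called by edgeR. The median is highest for the ER chaperones, at 0.27.

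The list of 18 sensors, eIF2α kinases and their phosphatases held 17 tested genes. Of them, 12 had a log2 fold change above 0 (median 0.10), none was called by edgeR (0.464% of all genes) and 1 by DESeq2 (4.29%). The median was 0.021 without *ApoE-/-* replicate 4 and 0.047 without replicate 1. *Ppp1r15b*, the subunit of the phosphatase that removes phosphate from eIF2α, had 143, 138, 139 and 154 CPM in *ApoE-/-* and 205, 184, 169 and 222 CPM in WT aortas. These do not overlap, and DESeq2 called it lower (log2 fold change −0.44, DESeq2 adjusted p = 0.0054, edgeR adjusted p = 0.137). *Eif2ak3*, which encodes PERK, had 42.5, 44.2, 42.8 and 42.1 CPM against 38.0, 37.9, 38.3 and 38.2 CPM. Its genotypes were also separate, and the difference was small (log2 fold change 0.17, interval 0.0041 to 0.34, edgeR adjusted p = 0.419). *Eif2ak2*, the kinase PKR that senses viral RNA, had 40.6 to 51.4 CPM in *ApoE-/-* and 32.7 to 39.3 CPM in WT aortas (log2 fold change 0.33, edgeR adjusted p = 0.287). *Eif2b3*, a subunit of the exchange factor of eIF2, overlapped (log2 fold change −0.10, edgeR adjusted p = 0.808).

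ER chaperones and folding enzymes leaned most to one side, with 21 of 23 genes above 0 (19 of 23 with upper-quartile factors, and 18 to 23 with 1 mouse left out) and a median log2 fold change of 0.27, where 58.0% of all genes were above 0. Of the 23, edgeR called 0 (0.464% of all genes) and DESeq2 2 (4.29%), 8 had an unadjusted edgeR p under 0.05 (11.4%) and 4 separated the genotypes (8.71%). The 8 became 3 without WT replicate 1 or 4, 4 without *ApoE-/-* replicate 2 or 4 or WT replicate 2, and 5 without WT replicate 3 or with upper-quartile factors. They became 10 without *ApoE-/-* replicate 1 (18.7% of all genes), 9 without replicate 3 (10.3%) and 14 without both (19.5%), when edgeR called 2 of the 23 (5.38%). *Sdf2l1*, a cochaperone of BiP, had 6.78, 7.22, 4.01 and 11.2 CPM in *ApoE-/-* and 2.25, 3.28, 2.83 and 3.78 CPM in WT aortas. All of its *ApoE-/-* values were above all WT values (log2 fold change 1.26, SE 0.32, edgeR adjusted p = 0.129, DESeq2 adjusted p = 0.010). *Manf*, a secreted ER stress protein, had 41.3, 45.6, 31.5 and 49.9 CPM against 24.0, 27.9, 29.5 and 28.7 CPM. It separated in the same way (log2 fold change 0.61, edgeR adjusted p = 0.124, DESeq2 adjusted p = 0.020). For both, as for *Hspa5*, replicate 3 was the lowest and replicate 4 the highest of the *ApoE-/-* mice. *Selenok* (log2 fold change −0.07) and *Ppib* (−0.014) were the 2 genes below 0. Of the 20 chaperone genes with a promoter window, 7 held an ERSE, and the highest fold among these was that of *Pdia6*, named after its values were seen (log2 fold change 0.46, edgeR adjusted p = 0.411).

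ER-associated degradation and translocation, which many targets of XBP1 serve, had 24 of 30 genes above 0 (58.0% of all genes) and a median log2 fold change of 0.12, which was 0.06 without *ApoE-/-* replicate 4 and 0.20 without both replicates 1 and 3. Here edgeR called 0 (1 without *ApoE-/-* replicate 1, when it called 3.91% of all genes) and DESeq2 2 of the 30 (4.29% of all genes), and 3 separated the genotypes (8.71% of all genes), which is near the background. *Edem1*, which sends misfolded glycoproteins to degradation, had 100, 123, 114 and 125 CPM in *ApoE-/-* and 88.5, 83.9, 86.1 and 89.0 CPM in WT aortas. *Sec61a1*, the pore of the translocon, had 163, 159, 177 and 190 CPM against 140, 137, 142 and 136 CPM. Both were separate between genotypes, by a log2 fold change of 0.41 (edgeR adjusted p = 0.109, DESeq2 adjusted p = 0.010) and 0.31 (edgeR adjusted p = 0.214, DESeq2 adjusted p = 0.027). *Syvn1*, the ubiquitin ligase HRD1, and *Srp19*, of the signal recognition particle, had log2 fold changes of −0.12 and −0.04 and overlapped.

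**Figure D5:**
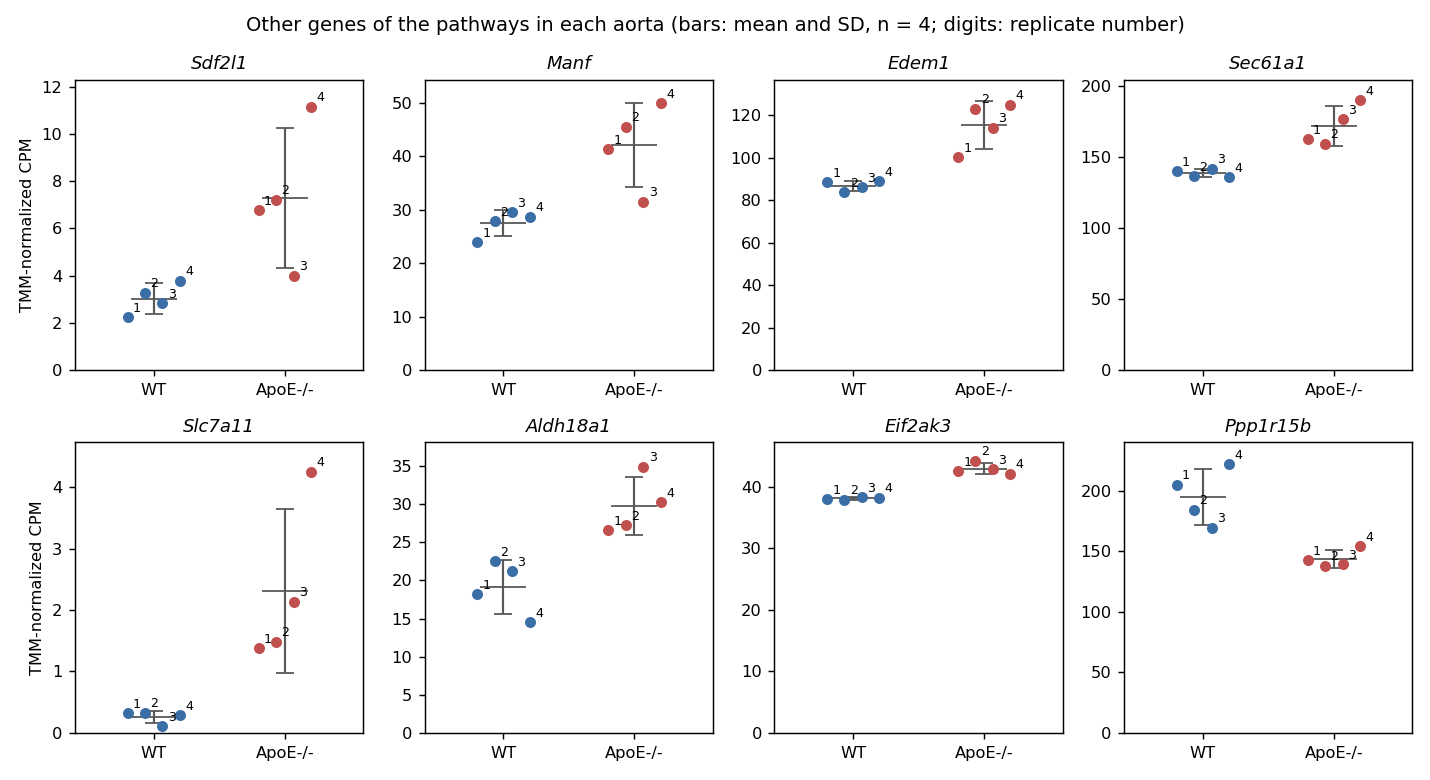
TMM-normalized CPM of 8 other genes of the pathways in each aorta, drawn as for the 10 genes, with bars for the mean and SD (n = 4) and axes that start at 0. The genotypes are separate for all 8, which were chosen for the plot after their values were seen, and *Ppp1r15b* alone is lower in *ApoE-/-* mice.

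Among 29 genes of amino acid synthesis, transport and tRNA charging known as ATF4 targets, the relatives of *Asns*, 25 were above 0 (58.0% of all genes). The median log2 fold change was 0.19. The 25 became 22 with upper-quartile factors (52.2% of all genes), total counts (54%), limma-voom (49.7%) or the replicate block (49.7%). Of the 29, 7 had an unadjusted edgeR p under 0.05 (11.4% of all genes), 5 separated the genotypes (8.71%), edgeR called 1 (0.464%) and DESeq2 2 (4.29%). The 7 became 3 without WT replicate 1 (8.99% of all genes) or 2 (9.16%), and 4 without *ApoE-/-* replicate 1 (18.7%) or WT replicate 3 (8.84%). They became 3 with the replicate block (11.4%), and 4 with total counts (11.2%) or at least 10 counts in every mouse (11.2%). *Slc7a11*, which imports cystine for glutathione synthesis, had 1.38, 1.49, 2.13 and 4.25 CPM in *ApoE-/-* and 0.321, 0.328, 0.111 and 0.287 CPM in WT aortas. It rose in *ApoE-/-* mice with a log2 fold change of 3.10 (SE 0.49, interval 1.97 to 4.23, edgeR adjusted p = 0.046), on 34 to 98 counts per library against 2 to 7, a call that leaving out any mouse but *ApoE-/-* replicate 1 removed. The order of its *ApoE-/-* values was that of the macrophage markers, which summed to 790, 1880, 2852 and 4344 CPM in replicates 1 to 4, and the part of these cells in the result was not tested. *Aldh18a1*, which makes a precursor of proline and is named after its values were seen, had 26.6 to 34.9 CPM against 14.6 to 22.5 CPM and was called by DESeq2 only (log2 fold change 0.64, DESeq2 adjusted p = 0.025, edgeR adjusted p = 0.127). Of the 29 genes, 21 had a promoter window and 7 held a CARE, which is too few matched genes for a share to be read.

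The 18 tested signalling targets of ATF4 and CHOP, the relatives of *Trib3*, were split, with 9 above 0 (58.0% of all genes) and a median log2 fold change of −0.0042. Neither tool called any of the 18, where edgeR called 0.464% and DESeq2 4.29% of all genes. An unadjusted edgeR p under 0.05 was reached by 5 (11.4% of all genes). The balance moved with single mice, to 6 above 0 (median −0.16) without *ApoE-/-* replicate 4 and to 12 without replicate 3, and 14 were above 0 with both replicates 1 and 3 left out (median 0.14). Without replicate 1 edgeR called 2 of the 18, when it called 3.91% of all genes, and without both replicates it called 1 (5.38%). *Gdf15*, a stress cytokine, had 0.934, 1.09, 2.48 and 2.95 CPM in *ApoE-/-* and 0.780, 0.749, 0.831 and 0.479 CPM in WT aortas (log2 fold change 1.39, edgeR adjusted p = 0.219), on 10 to 68 counts. *Gadd45a*, a growth arrest gene, overlapped between genotypes (log2 fold change 0.86, edgeR adjusted p = 0.214). *Sesn2*, which restrains mTORC1, had 28.9, 18.5, 19.2 and 37.3 CPM against 39.8, 36.3, 40.3 and 55.2 CPM, with overlap (log2 fold change −0.73, edgeR adjusted p = 0.288), and *Trib2*, a relative of *Trib3*, had a log2 fold change of −0.37 (edgeR adjusted p = 0.379).

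In the 3 remaining lists no gene was called by edgeR with all mice (0.464% of all genes). The CREB3 family of ER membrane transcription factors had 3 of 4 genes above 0, led by *Creb3l1* (log2 fold change 0.60, edgeR adjusted p = 0.437), with 26.6 CPM in *ApoE-/-* replicate 3. Of the 18 immediate-early genes, 8 were above 0 (median −0.11), where 58.0% of all genes were above 0, and DESeq2 called 1 (4.29% of all genes), *Socs3*, a feedback inhibitor of cytokine signalling with 20.5 to 38.2 CPM against 7.42 to 12.9 CPM (log2 fold change 1.38, DESeq2 adjusted p = 1.6e-04, edgeR adjusted p = 0.0635). Without *ApoE-/-* replicate 3, 5 of the 18 were above 0 (median −0.38). Without replicate 1 the median was 0.027, and edgeR called 1 of the 18 (3.91% of all genes). *Nr4a1* lay on the other side (log2 fold change −0.75, edgeR adjusted p = 0.595). Of the 16 cytosolic heat shock genes, 7 were above 0 (median −0.06), against 58.0% of all genes. Neither tool called any of the 16 (0.464% of all genes in edgeR and 4.29% in DESeq2). Without *ApoE-/-* replicate 3, 8 of the 16 were above 0 (median −0.013), and without both replicates 1 and 3, 9 were (median 0.0084).

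Cell type markers moved beside these lists. Of the 15 macrophage markers, all had a log2 fold change above 0 (median 2.21), 3 were called by edgeR (*Fcgr1*, *Itgax* and *Trem2*), 12 by DESeq2 and 14 separated the genotypes, where the shares of all genes were 0.464%, 4.29% and 8.71%. Among them *Cd68* ran from 5.54 to 9.09 CPM in WT and from 12.7 to 64.3 CPM in *ApoE-/-* mice, and no marker was at 0. The 14 endothelial markers had 13 genes below 0 (median −0.38, 7 called by DESeq2), the 10 fibroblast markers 10 above 0 (median 0.41, 2 called by DESeq2) and the 12 smooth muscle markers 10 below 0 (median −0.11, none called). B cell markers had 7 of 7 above 0 (median 1.33, sums of 12.9 to 31.7 CPM against 5.32 to 8.47 CPM) and plasma cell markers 5 of 6 (median 0.55). Heart muscle markers had 9 of 9 below 0 (median −2.77), adipocyte markers 9 of 10 (median −0.45) and skeletal muscle markers 3 of 9 (median 0.18). The part of these cells in the values of the stress response genes was not tested.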

How the data were processed

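Whole aortas of 8 male mice were sequenced by the study as stranded, ribodepleted total RNA. The deposited files hold, for each mouse, raw counts by gene, which the authors did not normalize. Per the submitters' processing notes, TopHat2, HTSeq and GRCm38 (mm10) were used, and the versions and the annotation are not given in the sources used here. Totals that name no gene stayed out of library sizes. Of all pairs, 32.3% to 35.6% were on genes in *ApoE-/-* and 27.9% to 30.2% in WT libraries, with no overlap. Of 21859 identifiers, 21817 were found in GENCODE M21 (GRCm38) without their version number, which gave coordinates and exonic lengths, and 42 were not. Every pair of libraries of a genotype differed beyond sampling noise (chi-square).

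Counts were filtered with filterByExpr of edgeR 4.0.16 (R 4.3.3), scaled by TMM and compared by genotype alone with glmQLFit (robust) and glmQLFTest, two-sided, with Benjamini-Hochberg adjustment over 15077 genes and a threshold of 0.05. CPM for tables of similar patterns were log2 with a prior count of 2, for genes of at least 1 CPM. Single genes also had an exact two-sided permutation test over the 70 assignments of the 8 mice, whose smallest p is 0.0286. The alternatives were DESeq2 1.42.0, which the paper names, limma-voom (limma 3.58.1), other scaling factors, other filters (none, or at least 10 counts in every mouse), left-out mice, a block for the replicate number, and a fit that was not robust. The same fit functions were run on simulated counts with the same dispersion in both genotypes. That simulation does not hold the larger spread seen within *ApoE-/-* mice.

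The 10 genes and all lists were chosen with earlier results of these data known. The genes named were the 10, the genes of each list called by edgeR or otherwise up to 2 per direction by smallest p, the gene most similar in pattern to each of the 10 (that for *Atf3* is not reported here), and *Apoe*; exceptions are marked. Replicate numbers belong to different mice: the deviations of same-numbered mice had correlations of 0.0593, −0.448, 0.316 and 0.162 over genes, so they were not paired. P-values measure the spread between the mice of a genotype. Promoter windows were from RefSeq (GRCm38.p6), read with Python 3.11.15.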

Additional observations from a re-analysis of the deposited data

Results flagged for a closer look

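In 76 groups of 4 values (the 10 genes and the named genes of the pathway lists, by genotype), the highest or lowest value lay apart from the other 3 in 2 cases, by a gap over the whole range above Dixon's critical value for 4 samples. Chance gives about 3.8 such cases. WT replicate 3 was the highest of the WT aortas for *Ern1*, with 67.5 CPM and a gap of 0.955 of the range. *ApoE-/-* replicate 1 was the highest of its genotype for *Hspa4l*, a cytosolic heat shock protein, with 137 CPM and a gap of 0.952.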

How the results depend on the processing

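The number of the 10 genes called by edgeR stayed at 0 under every alternative, and DESeq2 called 0 with all mice and 0 to 1 with 1 mouse left out. Over all genes edgeR called 70, limma-voom 29, DESeq2 721 (477 higher, 244 lower) and edgeR 822 without both *ApoE-/-* replicates 1 and 3, 369 of them higher. Leaving out 1 mouse gave 0 to 593 calls, the most without *ApoE-/-* replicate 1, and 431 to 1548 with DESeq2. With the replicate number as a block 2 genes were called, 0 of them members; the mice are not paired and not every mouse resembled its own number most. Of the genes in the 8 lists (1 called), DESeq2 called 8, limma-voom 0, the replicate block 0 and the fit without both replicates 6. A minimum of 10 counts gave 0 calls, and *Slc7a11* fell below that minimum and was not tested. With 1 mouse left out the count was 0 to 5, and 2 to 16 with DESeq2. The alternatives for the lists were added after seeing the data. Members with separate genotypes numbered 3 without both replicates and 0 to 2 with 1 mouse left out.

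The sign of the log2 fold change was stable for *Hspa5*, *Ddit3*, *Atf3*, *Atf6* and *Chac1* in all alternatives run. It turned for *Atf4* (−0.0080 with upper-quartile factors) and for *Asns* (−0.013 with upper-quartile factors, −0.16 with limma-voom, −0.17 with the replicate block and −0.17 without both replicates). With 1 mouse left out, edgeR values ran from −0.051 to 0.12 for *Atf4*, −0.021 to 0.14 for *Xbp1*, −0.031 to 0.18 for *Ern1*, −0.072 to 0.44 for *Trib3* and −0.41 to 0.28 for *Asns*, and DESeq2 values from −0.065 to 0.10, −0.037 to 0.13, −0.040 to 0.17, −0.093 to 0.43 and −0.41 to 0.27. The cause was not tested. With 4 mice a genotype, the intervals of *Atf3*, *Asns*, *Chac1* and *Trib3* reach up to 3.27-, 2.20-, 2.19- and 1.98-fold higher, which is the precision these mice allow.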
